A study of Mus musculus with 24 samples.

Results

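The 5 genes described here, Pck1, G6pc, Fbp1, Slc37a4 and Ppargc1a, carry or drive gluconeogenesis in the mouse liver. They were taken by name from the 54733 genes listed in each liver RNA-seq table, and all 5 names were found. Livers came from adult male C57BL/6 mice of 2 genotypes, WT and ΔRRE, and 12 libraries of each genotype give 2 at each of 6 time points of the circadian day (CT2, CT6, CT10, CT14, CT18 and CT22). ΔRRE mice are homozygous for a CRISPR deletion that removes the RREs, the binding elements of the ROR activators and REV-ERB repressors, from the 5′-UTR region of the clock gene Bmal1 (Arntl in the files). The deletion is present in every cell of the body, so the liver is not the only tissue affected. WT littermates served as controls, and the study's methods name a single mutant line as the one used unless stated otherwise. Tissues were taken in constant darkness from mice with free access to food. Levels are FPKM, the authors' read fragments per kilobase of transcript, scaled to the mapped fragments of the library, which are per length and can be set side by side between genes. The total per library lay between 554170 and 624746 FPKM, and the depth in reads is unknown from these files. The labels number the 2 libraries of a group as replicates without saying that they came from separate animals, so p-values measure the spread between these libraries.

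Gluconeogenesis makes glucose from lactate, glycerol and amino acids, and the liver uses it to keep blood glucose up between meals. Pck1, the cytosolic phosphoenolpyruvate carboxykinase, turns oxaloacetate into phosphoenolpyruvate, and Fbp1, fructose-1,6-bisphosphatase, reverses the phosphofructokinase step of glycolysis. Slc37a4 carries glucose 6-phosphate into the endoplasmic reticulum, where G6pc, the catalytic subunit of glucose-6-phosphatase, releases free glucose. Ppargc1a encodes PGC-1α, a coactivator that glucagon and fasting induce and that switches on genes of the pathway. Insulin represses Pck1 and G6pc, whereas glucagon acts through cyclic AMP and CREB, and REV-ERB proteins are known repressors of gluconeogenic genes.

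In the GENCODE M21 annotation of GRCm38, the build of the files, Pck1 (ENSMUSG00000027513) lies on the plus strand of chromosome 2 from 173153048 to 173159273. G6pc (ENSMUSG00000078650) lies on the plus strand of chromosome 11 from 101367561 to 101377903. Fbp1 (ENSMUSG00000069805) lies on the minus strand of chromosome 13 from 62864753 to 62888282. Slc37a4 (ENSMUSG00000032114) lies on the plus strand of chromosome 9 from 44396852 to 44402968, with the miRNA gene Mir7085 inside it. Ppargc1a (ENSMUSG00000029167) lies on the minus strand of chromosome 5 from 51454250 to 51567726 and overlaps 4 entries of unconfirmed transcripts. The library kit marked strand, but how the counting used it is not given in the sources used here.

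Because the genotypes differ in an element bound by REV-ERB and ROR, the 250 bases upstream of each RefSeq start of these genes (GRCm38.p6) were searched on both strands for 6 short motifs. These were AGGTCA, the core shared by nuclear receptors, the longer TAGGTCA found in RREs, TGACG of CREB sites, TGTTTAC of forkhead factors, the E-box CACGTG, and TTANNTAA of the D-box. TAGGTCA contains AGGTCA. The matches stand here with their surroundings, 30 bases in all, 5′ to 3′ on the strand of the gene, with the matched letters in capitals.
Pck1, chr2:173152970-173152999, plus strand, CREB motif on the opposite strand: ggcctgccccttaCGTCAgaggcgagcctc
G6pc, chr11:101367543-101367572, plus strand, D-box motif: gttttgctattTTACGTAAatcaccctgaa
G6pc, chr11:101367650-101367679, plus strand, TAGGTCA on the opposite strand: tcagggctggatTGACCTAcagactgaatc
Slc37a4, chr9:44396806-44396835, plus strand, TAGGTCA: gacgaaacgtaaTAGGTCAtgtggtgctca
Slc37a4, chr9:44396872-44396901, plus strand, CREB motif: ttgacaggcaggaTGACGtctccatcccag
Ppargc1a, chr5:51567758-51567787, minus strand, CREB motif on the opposite strand: aggtgccctcccaCGTCActgagctccagt
All 5 genes had RefSeq entries, 7 in all, of which 3 were starts of Slc37a4. A further TGACG match stood upstream of the second Slc37a4 start, and Fbp1 held none of the 6 motifs in this window. RefSeq and GENCODE starts differ. By the GENCODE positions above, the TAGGTCA match of G6pc and the TGACG matches of Slc37a4 lie inside these genes. Of 32817 promoter windows of the same length, 2.24% held TAGGTCA, 14.0% AGGTCA, 17.7% TGACG, 5.43% TTANNTAA, 6.02% CACGTG and 3.16% TGTTTAC. A match is a run of letters, not a site.

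The labels were checked with Bmal1 itself, the gene that carries the deletion. In WT liver Arntl stood at 12.6 and 13.2 FPKM at CT2, 2.42 and 2.86 at CT6, 0.195 and 0.0919 at CT10, 2.21 and 1.15 at CT14, 5.96 and 5.76 at CT18, and 10.3 and 11.2 at CT22. In ΔRRE liver it stayed between 2.096 and 4.21 FPKM in all 12 libraries, and the genotypes did not overlap at any time point. The tissue label was checked with hepatocyte markers: Alb, the serum albumin gene, averaged 27420 FPKM over the 24 libraries, and all 6 hepatocyte markers were detected. The summed level of these 6 markers had a median of 39363 FPKM in WT and 36214 FPKM in ΔRRE. Gluconeogenesis also runs in the kidney, and of 4 kidney tubule markers Slc12a1 and Slc34a1 were listed at 0 in all libraries and the most abundant, Umod, averaged 0.004 FPKM.

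Pck1 and Fbp1 were the most abundant of the 5 genes, with means over the 24 libraries of 671 and 607 FPKM. G6pc followed at 91.1 FPKM and Slc37a4 at 53.2 FPKM, and Ppargc1a, which encodes a regulator and not an enzyme, was the lowest at 1.61 FPKM. In WT, Pck1 ranged from 143 to 1004 FPKM and Fbp1 from 456 to 688 FPKM, so that these neighbours overlapped, as did G6pc (27.8 to 146 FPKM) and Slc37a4 (30.1 to 86.4 FPKM).

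Pck1 was lowest at CT2 and highest from CT6 to CT14 in WT liver. The 2 WT libraries gave 236 and 143 FPKM at CT2, 893 and 294 at CT6, 701 and 691 at CT10, 1004 and 590.1 at CT14, 493 and 232 at CT18, and 372 and 394 at CT22. The ΔRRE libraries gave 468 and 259 FPKM at CT2, 837 and 619.8 at CT6, 1859.7 and 1599.5 at CT10, 1129 and 623 at CT14, 399.5 and 264 at CT18, and 1067 and 929.7 at CT22. Both ΔRRE libraries stood above both WT libraries at CT2, CT10 and CT22, and the genotypes overlapped at CT6, CT14 and CT18. The ratio of the means, ΔRRE over WT, was 2.61 at CT22, 2.49 at CT10 and 1.91 at CT2, against 1.10 at CT14 and 0.916 at CT18. In WT the means ran from CT14 through CT10, CT6, CT22 and CT18 down to CT2, and the libraries of each time point overlapped those of the next in that order. The WT pair at CT6 differed 3.04-fold between its own libraries, the widest such gap of this gene.

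G6pc ran on another schedule, with its trough at CT10 and its peak at CT22 in WT. WT libraries gave 109 and 62.4 FPKM at CT2, 42.3 and 50.3 at CT6, 27.8 and 33.2 at CT10, 94.0 and 53.7 at CT14, 64.5 and 58.5 at CT18, and 146 and 87.8 at CT22. ΔRRE libraries gave 98.9 and 90.8 FPKM at CT2, 76.5 and 145 at CT6, 48.3 and 134 at CT10, 109 and 69.9 at CT14, 80.6 and 65.9 at CT18, and 206 and 235 at CT22. The ΔRRE pair stood above the WT pair at CT6, CT10, CT18 and CT22, and the pairs overlapped at CT2 and CT14. The ratio of the means was 2.98 at CT10, where the ΔRRE libraries differed 2.77-fold from each other, 2.39 at CT6 and 1.88 at CT22. In the WT order CT22, CT2, CT14, CT18, CT6 and CT10, the values of CT22, CT2 and CT14 overlapped, CT18 lay within the range of CT14, and CT6 and CT10 each stood below the time point before them.

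Slc37a4, the transporter that works with G6pc, was highest at CT14 in both genotypes and had the smallest p for a daily wave among the 5 genes. WT libraries gave 32.9 and 30.1 FPKM at CT2, 44.7 and 47.8 at CT6, 61.2 and 80.6 at CT10, 85.0 and 86.4 at CT14, 43.4 and 59.2 at CT18, and 44.1 and 32.5 at CT22. ΔRRE libraries gave 43.9 and 43.8 FPKM at CT2, 29.0 and 33.4 at CT6, 68.9 and 66.1 at CT10, 93.9 and 69.1 at CT14, 48.8 and 55.1 at CT18, and 40.0 and 36.5 at CT22. The ΔRRE pair lay above the WT pair at CT2 and below it at CT6, and the pairs overlapped at the other 4 time points. Its lowest mean thus fell at CT2 in WT, 31.5 FPKM, and at CT6 in ΔRRE, 31.2 FPKM, while the highest were 85.7 and 81.5 FPKM at CT14. In the WT order CT14, CT10, CT18, CT6, CT22 and CT2, CT18 overlapped CT6 and CT22 overlapped CT2, and the other neighbours stood apart.

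Fbp1 was high at all times and varied least. WT libraries ranged from 456 FPKM at CT22 to 688 FPKM at CT14, with a median of 559.8 FPKM, and ΔRRE libraries from 558 to 937 FPKM, both at CT14, with a median of 622 FPKM. At CT2 the WT libraries gave 562 and 470.2 FPKM and the ΔRRE libraries 731 and 642, at CT6 497 and 558 against 576 and 652, and at CT22 456 and 511 against 598 and 651. At these 3 time points the ΔRRE pair stood above the WT pair, and at CT10, CT14 and CT18 the pairs overlapped. The 2 ΔRRE libraries of CT14 differed 1.68-fold from each other.

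Ppargc1a was low, between 0.942 and 2.41 FPKM in WT. The exception was ΔRRE liver at CT10, with 4.40 and 2.84 FPKM against 1.67 and 1.15 in WT, a ratio of means of 2.57. The ΔRRE pair also stood above the WT pair at CT18, with 1.73 and 1.53 against 1.32 and 1.10 FPKM, and at CT22, with 1.57 and 1.79 against 1.14 and 1.46 FPKM. At CT2, CT6 and CT14 the pairs overlapped. Within ΔRRE, the 2 libraries of CT10 were higher than the other 10, which lay between 0.856 and 1.97 FPKM.

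**Figure D1:**
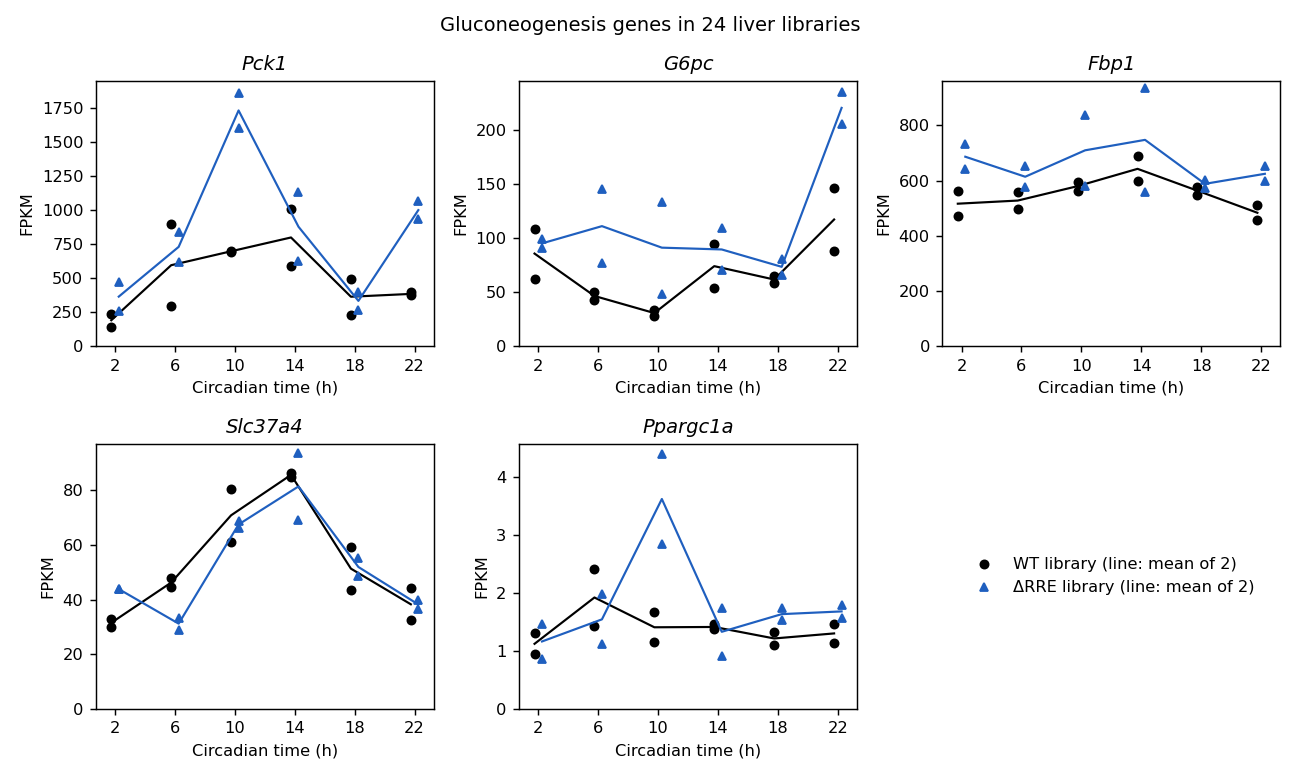
Level of each gene in FPKM (y axes, from 0) against circadian time in h (x axes), with 1 point per library (black circles WT, blue triangles ΔRRE) and lines through the mean of the 2 libraries. Pck1 and Ppargc1a have their highest ΔRRE points at CT10 and G6pc at CT22, whereas the Slc37a4 lines of both genotypes peak at CT14.

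Whether the genes kept a daily rhythm was asked in each genotype with a cosine wave of 24 h fitted to log2(FPKM + 0.1) by limma, and a gene was called rhythmic at a Benjamini-Hochberg adjusted p under 0.05 over the 12854 genes whose mean reached 0.5 FPKM. The amplitude is the height of the wave above its mean on the log2 scale. All 5 genes were above the minimum. In WT, 2 of 5 were called, Slc37a4 and G6pc, against 9.09% of all genes tested, and in ΔRRE 1 of 5, Slc37a4, against 3.97%. Slc37a4 was thus called in both genotypes, as were 2.51% of all genes.

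Slc37a4 had an amplitude of 0.69 ± 0.079 (SE, n = 12 libraries) and a peak at 12.8 h of circadian time in WT, with an adjusted p of 0.000926 in limma. In ΔRRE its amplitude was 0.55 ± 0.12 and its peak at 13.8 h, with an adjusted p of 0.0462, and this call was lost when any of 9 of the 12 ΔRRE libraries was left out (adjusted p up to 0.126). G6pc had an amplitude of 0.74 ± 0.17 and a peak at 21.7 h in WT, with an adjusted p of 0.0382, which was between 0.0555 and 0.111 without any of 8 of the 12 WT libraries. In ΔRRE its amplitude was 0.46 ± 0.23, its peak at 23.6 h and its adjusted p 0.414. Pck1 had the largest WT amplitude of the 5, 0.85 ± 0.23 with a peak at 12.002 h, but its adjusted p was 0.0769, and in ΔRRE it was 0.67 ± 0.30 with a peak at 10.2 h and an adjusted p of 0.358. Fbp1 (amplitude 0.17 in WT and 0.08 in ΔRRE) and Ppargc1a (0.20 and 0.36) were not called in either genotype, with limma's adjusted p of 0.143 and 0.849 for Fbp1 and 0.588 and 0.555 for Ppargc1a. Without the first ΔRRE library of CT10 the ΔRRE amplitudes were 0.015 for Fbp1 and 0.15 for Ppargc1a. The fitted peak of G6pc thus lay 9.70 h after that of Pck1 in WT. These peaks had SEs of 0.88 h and 1.04 h, and the gap between them was not tested.

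A cosine misses profiles with 2 peaks, so time point was also fitted as a factor. Under that test ΔRRE Pck1 was called, with an adjusted p of 0.0251 in limma, together with Slc37a4 (0.0106), against 2.54% of all genes. The ΔRRE means of Pck1 were high at CT10 (1730 FPKM) and at CT22 (998 FPKM) and lower between them, 332 FPKM at CT18. In WT, Slc37a4 alone of the 5 was called (adjusted p 0.0200) and G6pc was not (0.0741), against 2.80% of all genes. By the 3 looser criteria of the study (p under 0.3, a highest mean over 1.5 times the lowest, and a largest SD within 1.5 times their difference, here with limma's p), Pck1, G6pc and Slc37a4 were rhythmic in both genotypes, 3 of 5, where 38.4% of all genes were in WT, 36.6% in ΔRRE and 23.3% in both.

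The difference in rhythm between the genotypes was tested in 1 limma model of the 24 libraries. The change in amplitude, ΔRRE minus WT, was -0.18 for Pck1, -0.28 for G6pc, -0.10 for Fbp1, 0.16 for Ppargc1a and -0.14 for Slc37a4. The sign turned for Pck1 without either ΔRRE library of CT22 (0.0621 and 0.1061) and for Ppargc1a without the first ΔRRE library of CT10 (-0.0456). None of the 5 passed, each with an adjusted p of 0.9999, and no gene of the 12854 did (384, or 2.99%, at an unadjusted p under 0.05, none of them among the 5). Arntl itself, with an amplitude of 2.57 in WT and 0.29 in ΔRRE, was missed with an adjusted limma p of 0.0515. A gene not called by this test can thus still differ in rhythm. A permutation test of the difference in the wave, over all 23328 divisions of the libraries within time points, gave p = 0.546 for Pck1, 0.452 for G6pc, 0.574 for Fbp1, 0.672 for Ppargc1a and 0.298 for Slc37a4. This test is exact only for genes with no genotype difference in level, which the divisions do not remove. With time point as a factor none of the 5 passed either, against 0.0311% of all genes. G6pc, called in WT and not in ΔRRE, was therefore not shown to differ in rhythm between the genotypes.

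**Figure D2:**
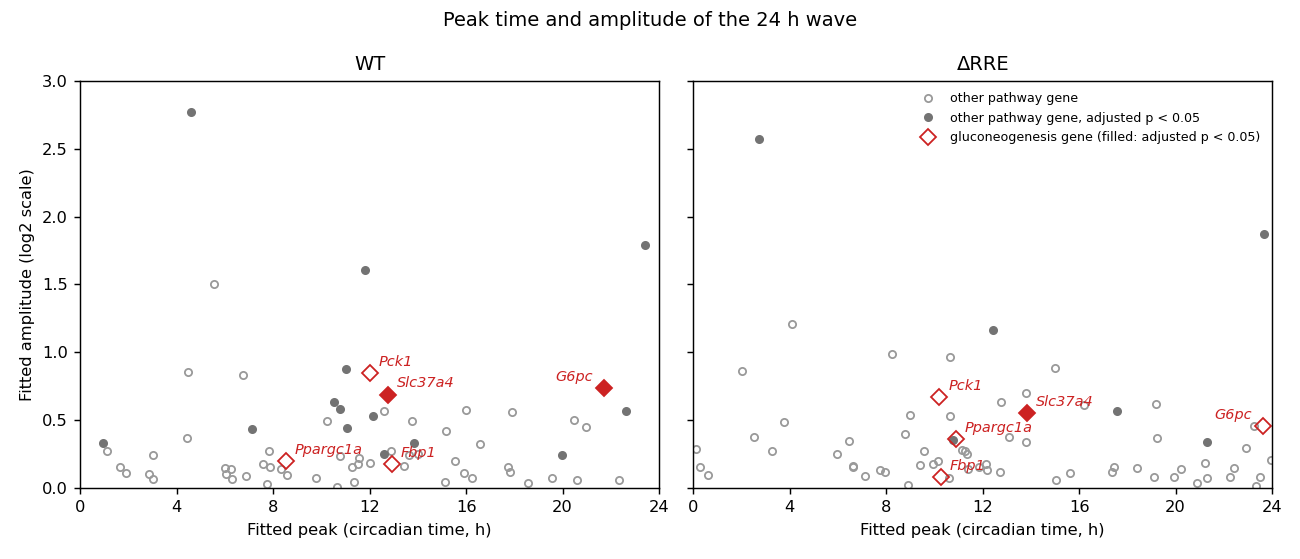
Fitted amplitude of the 24 h wave on the log2 scale (y axis) against fitted peak in h of circadian time (x axis), in WT (left) and ΔRRE (right). Red diamonds are the 5 gluconeogenesis genes and grey circles other genes of the pathway lists, filled where the adjusted p was under 0.05. Slc37a4 is filled in both panels, with peaks at 12.8 and 13.8 h, and G6pc is filled only in WT.

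The level over the whole day was compared in a limma model that held a term for genotype beside those for the time points. G6pc was 1.64-fold higher in ΔRRE (95% interval 1.26 to 2.14), Pck1 1.62-fold (1.198 to 2.18) and Fbp1 1.19-fold (1.06 to 1.33), and no gene of the transcriptome passed the adjustment. In log2 units these were 0.71 ± 0.18 for G6pc (SE, n = 12 and 12 libraries), 0.69 ± 0.21 for Pck1 and 0.25 ± 0.078 for Fbp1. Ppargc1a stood at 0.27 ± 0.17 (0.17 without the first ΔRRE library of CT10) and Slc37a4 at -0.03 ± 0.094. In whole liver, a change in the number of cells that express a gene and a change in RNA per cell cannot be told apart.

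In limma's test the unadjusted p was 0.000883 for G6pc, 0.00317 for Pck1, 0.00421 for Fbp1, 0.137 for Ppargc1a and 0.734 for Slc37a4, and the values adjusted over 12854 genes were 0.342, 0.373, 0.407, 0.709 and 0.962. The 3 genes with an unadjusted p under 0.05, all higher in ΔRRE, compare with 8.48% of all genes in either direction at that threshold and 6.67% higher (857 genes, with 233 lower). By size of p, G6pc ranked at 30, Pck1 at 109 and Fbp1 at 132 of 12854 genes. The exact two-sided permutation test, which cannot go below 4.29e-05 in this design, gave p = 0.00154 for G6pc, 0.0102 for Pck1, 0.0051 for Fbp1, 0.156 for Ppargc1a and 0.741 for Slc37a4, not adjusted for the 5 genes. The median log2 fold change of all genes tested was 0.0365, and rescaling the libraries by the median of ratios moved it to -0.0025 and turned the split of genes with an unadjusted p under 0.05 from 857 higher and 233 lower to 468 and 401. On the rescaled values G6pc kept 0.67, Pck1 0.65 and Fbp1 0.21 in log2 units, with exact permutation p of 0.00253, 0.0148 and 0.0152.

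The means of G6pc and Fbp1 were higher in ΔRRE at 6 of 6 time points, which 4.40% of all genes were, and that of Pck1 at 5 of 6 (20.4% at 5 or more). Both ΔRRE libraries stood above both WT libraries at 4 time points for G6pc (1.92% of genes at 4 or more) and at 3 for Pck1, Fbp1 and Ppargc1a (10.0% at 3 or more). Slc37a4 showed this at 1. At single time points the share of all genes with both ΔRRE libraries above was 18.0% at CT2, 15.8% at CT6, 17.1% at CT10, 17.5% at CT14, 24.2% at CT18 and 21.4% at CT22, and with both below 12.4% at CT6.

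Single time points were tested in a limma model that estimates the spread of each gene from all 24 libraries. The SEs and p-values therefore do not measure the spread of the 4 libraries compared. By time point, 8 of the 30 pairs of a gene and a time point had an unadjusted limma p under 0.05, and none passed the adjustment over all genes, the smallest adjusted p being 0.471. Of all genes, 0.00778% passed at CT2, 0.0156% at CT10, 0.0233% at CT14, 0.00778% at CT18 and 0 at CT6 and CT22. At CT10, 3 of the 5 genes were in this range, all higher in ΔRRE, against 3.38% of all genes: G6pc with a log2 fold change of 1.40 ± 0.42, Pck1 with 1.31 ± 0.48 and Ppargc1a with 1.29 ± 0.37 (SE, n = 2 and 2). At CT22, Pck1 (1.38 ± 0.48) and G6pc (0.95 ± 0.42) were, both higher, against 3.003% of all genes, and at CT6 G6pc (1.19 ± 0.42), against 1.87%. Slc37a4 had 0.48 ± 0.19 at CT2 and -0.57 ± 0.19 at CT6, where 2.78% and 3.40% of all genes had such a p in either direction. At CT14 and CT18 none of the 5 genes did, against 4.58% and 3.67% of all genes. Single libraries moved several of these values. G6pc at CT10 was 2.13 without the first ΔRRE library of CT10 and 0.67 without the second, at CT6 it was 1.65 and 0.73 without the first and the second ΔRRE library of CT6, and at CT22 1.32 and 0.59 without the first and the second WT library of CT22. Ppargc1a at CT10 lay between 0.99 and 1.60 when a library of that time point was left out, Pck1 between 1.2004 and 1.42 at CT10 and between 1.28 and 1.48 at CT22. The genes that did pass the adjustment at any time point were Arntl at CT2 and CT10, Lrfn3 at CT10, Gm21981, Golt1a and Tomm6 at CT14 and Zfp595 at CT18, of which Arntl alone belongs to the lists used here.

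**Figure D3:**
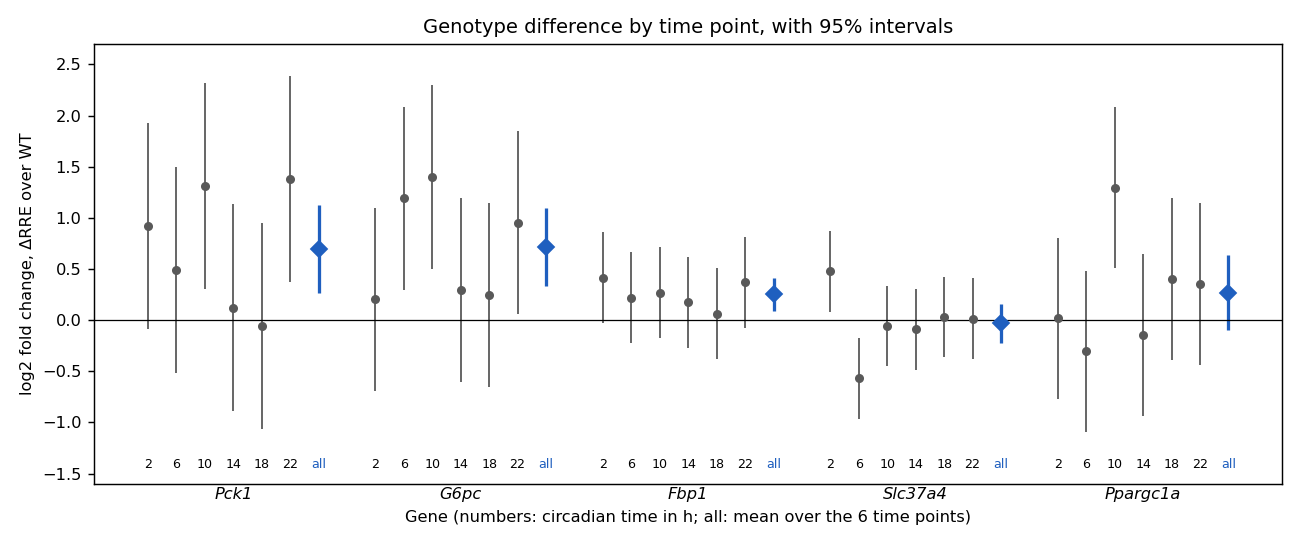
Difference between ΔRRE and WT on the log2 scale (y axis) for each gene (x axis), at each circadian time (grey circles, labelled by the hour) and over the 6 time points together (blue diamonds), with limma's unadjusted 95% intervals. Intervals at single circadian times rest on a spread estimated from all 24 libraries. The intervals of Pck1 at CT10 and CT22, of G6pc at CT6, CT10 and CT22 and of Ppargc1a at CT10 lie above 0, and Slc37a4 changes side between CT2 and CT6.

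Across the 24 libraries, Pck1 and Ppargc1a varied together (Pearson r = 0.703 on the log2 scale), as did Pck1 and Fbp1 (0.515), whereas Pck1 and G6pc hardly did (0.135) and G6pc and Slc37a4 ran apart (-0.349). Within WT, r between Pck1 and Slc37a4 was 0.656 and between Fbp1 and Slc37a4 0.751, over 12 libraries, and within ΔRRE these were 0.274 and 0.468. Pck1 and Fbp1 also had a lower r in ΔRRE (0.467 in WT and 0.364 in ΔRRE). The other pairs had a higher r in ΔRRE, among them Pck1 and Ppargc1a (0.647 and 0.723) and Pck1 and G6pc (-0.324 and 0.206). The libraries share the daily cycle, genotype and their own preparation, so these values describe likeness alone. The tested genes whose profile was most like that of Pck1 were Psmd9 (r = 0.848), the mitochondrial carrier Slc25a47 (0.842) and Tnfrsf1b (0.842). For G6pc they were Rprd1a (0.773), Fam222a (0.766) and 2310015A10Rik (0.743), for Fbp1 Mrpl23 (0.793), Grn (0.785) and Atp5g1 (0.783), and for Ppargc1a Zfp385b (0.781), Sorbs3 (0.781) and Ercc5 (0.750). Slc37a4 had closer neighbours, among them Coq10b (0.922) and Rhbdd2 (0.883).

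Of 9 paralogs of the 5 genes, 6 were above the minimum and G6pc2, Fbp2 and Slc37a2 were below it. Pck2, the mitochondrial form of Pck1, averaged 0.979 FPKM in WT and 1.10 FPKM in ΔRRE, and G6pc3, the widely expressed relative of G6pc, 3.63 and 3.90 FPKM. None of the 6 was called rhythmic at the adjusted p in either genotype (9.09% and 3.97% of all genes) or had an unadjusted p under 0.05 for the level, although 6 of 6 log2 fold changes were above 0, as were 63.9% of all genes. Slc37a1, with 0.52 ± 0.30 and an unadjusted limma p of 0.0978, and Ppargc1b, with 0.19 ± 0.17, had the largest of these. By the study's 3 criteria Ppargc1b, Pprc1 and Slc37a1 were rhythmic in both genotypes, as were 23.3% of all genes, and the other 3 in neither (38.4% of all genes in WT and 36.6% in ΔRRE).

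Of 25 genes that supply the pathway or share its steps with glycolysis, 4 were called rhythmic in WT and 1 in ΔRRE, against 9.09% and 3.97% of all genes. Those of WT were the glucose transporter Slc2a2 (amplitude 0.58, peak at 10.8 h, limma's adjusted p 0.00123), the glycerol channel Aqp9 (0.43, 7.1 h, 0.00646), the oxoglutarate carrier Slc25a11 (0.25, 12.6 h, 0.0257) and the aminotransferase Gpt2 (0.33, 13.8 h, 0.0493). In ΔRRE it was the glycolytic enzyme Eno1 (0.34, adjusted p 0.0473). Slc2a2, through which glucose leaves the hepatocyte, ran between a mean of 32.8 FPKM at CT22 and 72.3 FPKM at CT10 in WT and between 33.9 and 47.0 FPKM at the same times in ΔRRE, and its ΔRRE amplitude was 0.20. Its difference in rhythm had an unadjusted limma p of 0.0092, which did not pass the adjustment over all genes. In level, 4 of the 25 were higher in ΔRRE at an unadjusted p under 0.05 and 1 was lower (Slc2a2, -0.22 ± 0.10), against 6.67% of all genes higher and 8.48% in either direction, and the median log2 fold change of the 25 was 0.02, near the 0.0365 of all genes. The 4 were Pcx, the pyruvate carboxylase at the entry of the pathway (0.10 ± 0.040), the aminotransferase Got1 (0.58 ± 0.21), Ldha and Pgam1, named after their values were seen.

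Of 26 regulators, 25 were tested and Nr4a1 was below the minimum. In WT the immediate early gene Egr1, the transcription factors Cebpb and Foxo3 and the cyclic AMP-responsive Crem were called rhythmic, with limma's adjusted p of 0.00686, 0.0251, 0.0492 and 0.0320, and in ΔRRE Egr1 (0.0353) and Klf15 (0.0325), against 9.09% and 3.97% of all genes. Crem peaked at 22.6 h in WT, near G6pc, and Cebpb at 12.1 h, near Pck1. In level, 5 of the 25 were higher in ΔRRE at an unadjusted p under 0.05 and 1 was lower, against 6.67% of all genes higher and 8.48% in either direction, with a median log2 fold change of 0.06. Named after their values were seen, the 5 were Sik1, a kinase that restrains CREB coactivators (0.65 ± 0.21), Irs2, an insulin receptor substrate (0.56 ± 0.24), Crem (0.30 ± 0.13), the CREB coactivator Crtc2 (0.17 ± 0.073) and Creb3l3 (0.14 ± 0.058), and the lower one was Cebpa (-0.14 ± 0.059). The forkhead factor Foxo1 (0.08 ± 0.099), Hnf4a (0.02 ± 0.052) and the glucagon receptor Gcgr (0.06 ± 0.054) had no such p.

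Of 4 genes that carry out or control glycolytic steps opposing the pathway, 2 were called rhythmic in WT. These were the regulatory protein gene Gckr and the phosphofructokinase Pfkl, with limma's adjusted p of 0.0352 and 0.0442. In ΔRRE it was 1 of 4, Pfkfb1 (adjusted p 0.0168). The shares of all genes were 9.09% and 3.97%. The pyruvate kinase Pklr, named after its values were seen, had a fitted peak at 13.7 h in WT and 19.2 h in ΔRRE. Its difference in rhythm had an unadjusted limma p of 0.0199 and an adjusted p of 0.9999. Gckr (0.18 ± 0.068) and Pfkl (0.16 ± 0.057) were higher in ΔRRE at an unadjusted p under 0.05, against 6.67% of all genes. The product of Gckr inhibits the first step of glycolysis and is not an enzyme of it.

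Of 7 fasting-responsive genes, 6 were tested and Fgf21 was below the minimum. In WT Cpt1a, Lpin1, Pdk4 and Angptl4 were called rhythmic, with limma's adjusted p of 0.00198, 0.00323, 0.0125 and 0.0151, and in ΔRRE Lpin1 (0.0141) and Pdk4 (0.0146), against 9.09% and 3.97% of all genes. Pdk4, which spares pyruvate, peaked at 23.4 h in WT, and Cpt1a, Lpin1 and Angptl4 at 10.5, 11.8 and 11.01 h. All 6 log2 fold changes were above 0, with a median of 0.40 against 0.0365 for all genes, of which 63.9% were above 0. An unadjusted p under 0.05 was found for 3, all higher, against 6.67% of all genes, and none passed the adjustment. Igfbp1, a secreted protein that insulin represses, was named after its values were seen. Its ΔRRE libraries gave 96.02 and 42.4 FPKM at CT10 and 60.7 and 166 FPKM at CT22, against 10.5 and 13.5 FPKM and 13.9 and 1.69 FPKM in WT. The ΔRRE pair stood above the WT pair at CT10, CT18 and CT22, and the pairs overlapped at the other 3 time points. Over the day Igfbp1 was 3.45-fold higher (95% interval 1.70 to 6.99), with an unadjusted limma p of 0.00151 and an adjusted p of 0.342. The other 2 were Pdk4 (0.62 ± 0.27) and Cpt1a (0.20 ± 0.089).

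**Figure D4:**
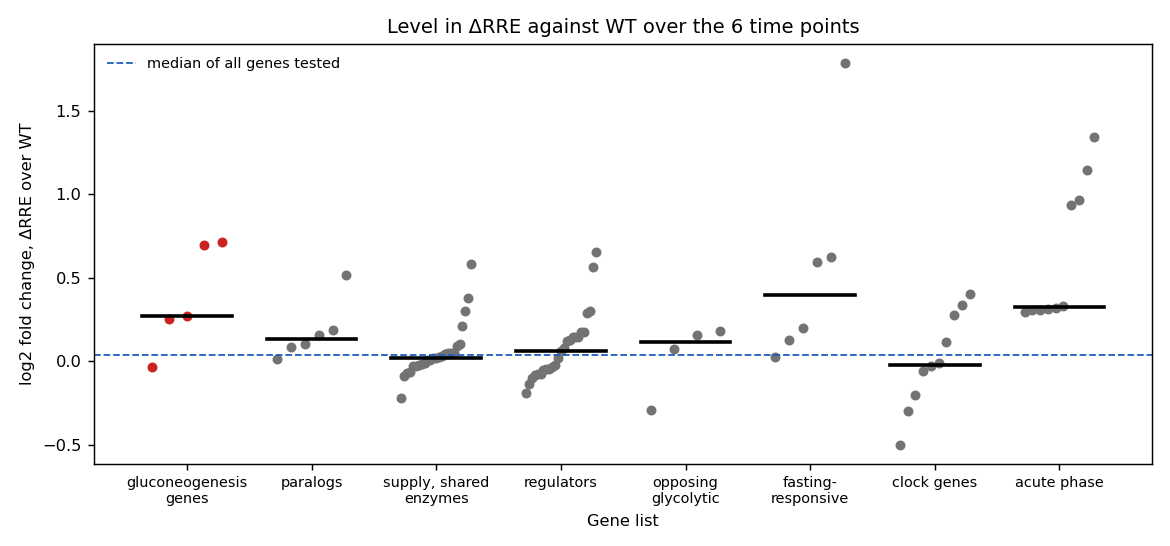
Level in ΔRRE against WT over the 6 time points, as log2 fold change (y axis), with 1 point per tested gene of each list (x axis), black bars at the list medians and a dashed line at the median of all genes tested. The bars of the gluconeogenesis, fasting-responsive and acute phase lists lie at 0.27, 0.40 and 0.32, against 0.0365 for all genes, and the highest point is Igfbp1.

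Genes of the acute phase response, which the liver secretes in inflammation, also had higher values in ΔRRE. All 10 had log2 fold changes above 0 (63.9% of all genes), with a median of 0.32, and 6 had an unadjusted p under 0.05, all higher in ΔRRE (6.67% of all genes). None passed the adjustment, and at CT18 the means of 8 of the 10 were lower in ΔRRE. Their summed level ran from 5258 to 10060 FPKM in WT, with a median of 7326, and from 5572 to 17813 FPKM in ΔRRE, with a median of 9341. The highest sums were those of the ΔRRE libraries of CT10, 16096 and 13398 FPKM, and of the first at CT14, 17813 FPKM, and the most abundant gene was haptoglobin (Hp), with a mean of 2186 FPKM. Without the libraries of CT10 and CT14, a choice made after the values were seen, the log2 fold changes were 0.65 ± 0.18 for G6pc, 0.68 ± 0.26 for Pck1 and 0.27 ± 0.071 for Fbp1 (SE, n = 8 and 8), with unadjusted limma p of 0.00274, 0.0189 and 0.00193 and adjusted p of 0.645, 0.744 and 0.639. In that fit 6.53% of all genes had an unadjusted p under 0.05 in either direction and 5.18% were higher. Ppargc1a was 0.12 ± 0.17. The libraries left in still held acute phase differences: both ΔRRE libraries stood above both WT libraries for 7 of the 10 genes at CT6, among them Saa1 and Saa2 (15.8% of all genes), and for 5 of 10 at CT22, among them Orm1 and Fga (21.4%), but for 0 of 10 at CT2 (18.0%) and at CT18 (24.2%). At CT10 this held for 9 of 10 (17.1%) and at CT14 for 0 (17.5%). The part of the acute phase genes in the difference of the 5 genes was not tested.

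Markers of other liver cells were low. The median summed level of 5 Kupffer cell markers was 37.8 FPKM in WT and 35.1 in ΔRRE, of 4 sinusoidal endothelial markers 28.8 and 27.2, of 5 stellate cell markers 46.6 and 47.2, and of 4 cholangiocyte markers 4.73 and 5.14 FPKM. The cholangiocyte marker Krt7 was below the minimum and not tested. No tested gene of these 4 lists had an unadjusted limma p under 0.05 for the level, against 8.48% of all genes in either direction. Gluconeogenic enzymes are higher in periportal than in pericentral hepatocytes. A log2 fold change above 0 was found for 5 of 6 periportal markers (median 0.25) and 1 of 6 pericentral markers (median -0.12). Among all genes tested 63.9% were above 0, with a median of 0.0365, and periportal Sds is also in the supply list. The summed levels had medians of 1128 and 1139 FPKM (periportal) and 4095 and 4024 FPKM (pericentral) in WT and ΔRRE. Periportal Ctsc had a log2 fold change of 0.43 ± 0.16 and pericentral Cyp1a2 of -0.28 ± 0.12, with unadjusted limma p of 0.0112 and 0.0285 and adjusted p of 0.473 and 0.535. At CT10 the periportal sum was 1722 and 1288 FPKM in ΔRRE against 973 and 1113 FPKM in WT, so that the genotypes did not overlap, and the first ΔRRE library of CT14 had 1615 FPKM. Both ΔRRE libraries of CT10 stood above both WT libraries for Sds (means 424 and 136 FPKM), Hal and Ctsc, as for 17.1% of all genes. Cyp2f2, the most abundant periportal marker (means 492 and 490 FPKM), Gls2 and Hsd17b13 overlapped there. The pericentral sum at CT10 was 3560 and 5434 FPKM in ΔRRE against 4900 and 5216 FPKM in WT. The part of these markers in the difference of the 5 genes was not tested.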

How the data were processed

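The authors made 24 strand-marked libraries from liver poly(A) RNA and deposited 1 table of FPKM per gene and library. The submitters' processing notes name Trimmomatic 0.39, HISAT2 2.1.0, StringTie 1.3.5 and the build mm10, and counts of reads were not used here. Genes averaging under 0.5 FPKM were left out, which kept 12854 of 54733, and the deposited FPKM were used as log2(FPKM + 0.1), which understates fold changes of low genes. The models used limma 3.58.1 under R 4.3.3 (intensity-dependent prior, Benjamini-Hochberg adjustment over all genes tested) and tested on simulated data. Exact permutation tests split the 4 libraries at every time point evenly in all 23328 ways. Groups follow the labels. The 5 genes, the pathway and marker lists and the tests were chosen with earlier results of these data known. The text names the 5 genes, in each list up to 4 genes with the smallest p for rhythm in WT and any called between genotypes, and per gene the 3 others most alike by Pearson's r. Of the genes these rules cover, 2 are not reported here. Promoter windows are from RefSeq, positions from GENCODE M21. No pair of libraries shared more than 0.038% of its values. Alternatives covered the constant, the filter, the scale, the replicate number, the wave, the call rule and each library.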

Additional observations from a re-analysis of the deposited data

Results flagged for a closer look

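Slc37a4 differed between the genotypes in opposite directions at 2 neighbouring time points, with no overlap of the libraries at either. Its log2 fold change was 0.48 at CT2, where both ΔRRE libraries stood above both WT libraries (18.0% of all genes did there), and -0.57 at CT6, where both stood below (12.4% of all genes). With time point as a factor, limma's test of the genotype difference across time points gave an unadjusted p of 0.0335 and an adjusted p of 0.9999, so the difference did not pass over all genes. With 2 libraries per group, a sample far from the others of its group could not be judged.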

How the results depend on the processing

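The number of genes called rhythmic in WT, 1169 in the reported fit, was 519 with no filter, 360 with time point as a factor, 4932 by the 3 criteria of the study and 740 to 1170 leaving out each library in turn, and that in ΔRRE, 510, was 197, 326, 4709 and 298 to 534, with 968 in 1 fit with a shared spread. Of the 5 genes, 1 was called in WT with no filter, with time point as a factor, with a shared spread, and 1 to 2 leaving out each library. In ΔRRE 0 were called with no filter, 2 with time point as a factor, 3 by the study's criteria and 0 to 1 leaving out each library. The count of genes with a rhythm difference, 0, was 1 with 1 FPKM added, with a mean of at least 1 FPKM and after rescaling, 4 with time point as a factor and 0 to 1 leaving out each library. The 1 was Arntl, and the 4 were Arntl, Gm21981, Golt1a and Zfp595. That of the level difference, 0, was 0 to 1 (Csrp3) leaving out each library, and that at each time point, 7, was 3 with a mean of at least 5 FPKM, 74 with no filter and 7 to 27 leaving out each library. The cause was not tested.

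With the replicate number as a block, Pck1 in WT was called (adjusted p 0.0400), Slc37a4 in ΔRRE was not (0.0563), and 0 of the 5 genes were called in ΔRRE, with no other call of the 5 changed. Deviations of same-numbered WT and ΔRRE libraries correlated between -0.114 and 0.16, so the numbers were not taken to pair the libraries. For Pck1 the library numbered 1 was nonetheless the higher in 11 of 12 pairs, all but WT CT22, and 2.15% of all genes tested had 11 or more pairs in 1 direction. Pck1 in WT was also called without the first WT library of CT6 (adjusted p 0.0389). Across the other alternatives and each library left out, the log2 fold change stayed between 0.59 and 0.79 for G6pc, 0.61 and 0.80 for Pck1 and 0.21 and 0.30 for Fbp1, with adjusted p from 0.194 to 0.744. A mean of at least 5 FPKM left Ppargc1a untested. The sign of the Slc37a4 level difference turned to 0.005 without the second WT library of CT6 and 0.0115 without the first ΔRRE library of CT6, in a range of -0.0699 to 0.0115 leaving out each library, and was -0.072 after rescaling. The amplitude difference of Pck1 turned to 0.0621 and 0.1061 without either ΔRRE library of CT22 (range -0.34 to 0.1061), and that of Ppargc1a to -0.0456 without the first ΔRRE library of CT10 (range -0.0456 to 0.35). That of G6pc ran from -0.43 without the second ΔRRE library of CT22 to -0.11 without the second of CT10, that of Fbp1 from -0.16 to -0.04 without the first and the second ΔRRE library of CT10, and that of Slc37a4 from -0.22 without the first ΔRRE library of CT14 to -0.05 without the first of CT2. Leaving out each library, the amplitude of Ppargc1a ran from 0.12 (without the first WT library of CT6) to 0.28 in WT and from 0.15 to 0.55 (without the second of CT14) in ΔRRE, and that of Fbp1 in ΔRRE from 0.015 to 0.13 (without the second of CT10). With 2 libraries per group and no read counts, counting error was not known, and values near 1 FPKM, as for Ppargc1a, are the least certain.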
